A study of Mus musculus with 17 samples.

Results

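The microRNA processing and silencing machinery was read in mouse fetal liver cells as 10 genes, of 47069 listed in the tables of the Gata1s cells: Drosha, Dgcr8, Xpo5, Dicer1, Ago1, Ago2, Ago3, Tnrc6a, Tnrc6b and Tnrc6c. The members were set by gene name, and the rule holds no measured value, though they were chosen with earlier results of these data known. All 10 passed the filter on low counts in both tables in which groups were compared. The question was how this machinery behaved when the cells were given a microRNA or a short hairpin, both of which pass through it.

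The cells came from embryos at day E12.5-13.5 of a mouse line with Cas9 and EGFP inserted at the Gt(ROSA)26Sor locus under the CAG promoter, the same line in every group. A guide RNA against Gata1, sgGata1, was present in 14 of the 17 libraries, and the study calls those cells Gata1s, a name for the shortened GATA1 transcription factor. Among the Gata1s cells, the LUC group (a luciferase control, 3 libraries) and the Arid3a group (an Arid3a transgene, 3 libraries) had doxycycline at 1 µg/mL for 48 h. The sh-ctrl group (a control hairpin, 3 libraries), the shArid3a group (a hairpin against Arid3a, 2 libraries numbered 1 and 3) and the miR-125b group (3 libraries) had the same dose for 10 days. The WT group (3 libraries) carried the guide sgLuc and the hairpin shLuc and had no doxycycline. The labels do not say which of these transgenes doxycycline switched on, or whether libraries of a group came from separate embryos or cultures.

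A microRNA is cut out of its primary transcript in the nucleus by the microprocessor, in which Drosha is the nuclease and Dgcr8 the RNA-binding partner. Exportin-5, the product of Xpo5, carries the hairpin to the cytoplasm, and Dicer1 cuts it to a short duplex. An Argonaute protein (Ago1 to Ago4) keeps one strand and finds target mRNAs by the seed of that strand, Ago2 being the Argonaute that can slice a fully paired target. The Tnrc6 proteins (Tnrc6a to Tnrc6c, also called GW182) bind Argonaute and bring in the deadenylases that silence the target. DGCR8 protein together with Drosha is also known to cut hairpins in the Dgcr8 mRNA itself. A short hairpin made from a vector can enter this route at export or at Dicer1, depending on its design, whereas a microRNA transgene usually begins at the microprocessor.

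The mature strand of the added microRNA is shown because its seed sets which mRNAs it can pair with. The sequence is from RefSeq (GRCm38.p6), where identical copies lie in Mir125b-1 (chr9:41581940-41581961, plus strand) and Mir125b-2 (chr16:77646279-77646300, plus strand), and the capitals mark the seed, bases 2 to 8.
mmu-miR-125b-5p: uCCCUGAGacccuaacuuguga
The letters that pair with the seed are CTCAGGG (a 7mer match), or CTCAGGGA with the base opposite position 1 (an 8mer match). They were searched on the transcribed strand of 1 annotated 3′ untranslated region (UTR) per gene (GENCODE M21, GRCm38). Of the 10 genes, 2 held a match, Ago2 with 2 and Dicer1 with 1, all 7mer. The sites are shown with 12 bases before the match, in capitals, and 6 after it.
Ago2, site at UTR position 308 (chr15:73106588-73106612, minus strand): agtctatgaactCTCAGGGctttaa
Ago2, site at UTR position 6372 (chr15:73100524-73100548, minus strand): taagccacagccCTCAGGGcaccag
Dicer1, site at UTR position 2077 (chr12:104689504-104689528, minus strand): cgttcatccattCTCAGGGctcaaa
For scale, the 3′ UTR of Arid3a, the gene the study modulated, held 6 matches, of which 2 were 8mers.
Arid3a, first 8mer site (chr10:79952875-79952900, plus strand): ggcctcctgtgcCTCAGGGAtgacag
Arid3a, second 8mer site (chr10:79953808-79953833, plus strand): atgggtaactggCTCAGGGAtatagc
A match was present in 14.1% of the 11490 tested genes with an annotated 3′ UTR, whose median UTR was 931 bases long. The UTR of Ago2 spanned 11064 bases and that of Dicer1 3851, so both gave more room for a match than the usual gene. Long UTRs without a match were those of Ago3 (12742 bases), Tnrc6b (11609) and Ago1 (4491), and Tnrc6a (2345), Tnrc6c (2588), Dgcr8 (1574), Xpo5 (1327) and Drosha (169) also held none. A match describes letters in these windows and is no evidence of a working site.

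Library totals were 31339238 to 40859301 counts in the Gata1s cells and 16362439 to 19212193 in WT. The hematopoietic markers were present in every group, and the summed level of 5 hepatocyte markers was at most 4.503 CPM (a gene's counts scaled by the library total), with Ttr and Serpina1a at 0 in all groups but LUC, so the labelled organ was present as its blood cells. The share of mitochondrial counts was 2.39% to 4.11% in sh-ctrl, 2.05% to 2.84% in shArid3a and 1.75% to 2.26% in miR-125b. In the libraries labelled Arid3a, Arid3a itself was at 58.3, 74.3 and 80.1 CPM against 67.3, 64.0 and 70.2 in LUC, a log2 difference of 0.08 (SE 0.12, adjusted p = 0.737, edgeR with Benjamini-Hochberg adjustment), so these counts do not show the transgene and the group is named below by its label only. Arid3a was lower with shArid3a, by −1.43 (SE 0.20, adjusted p = 0.0368, edgeR; 0.461 at the highest among 12 alternative fits), and with miR-125b, by −2.56 (SE 0.18, adjusted p = 0.000282, edgeR). The genes Mir125b-1 and Mir125b-2 had 0 counts in all 17 libraries, the miR-125b group included, so the microRNA itself cannot be read from these counts.

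Per gene length, Xpo5 and Drosha were the most abundant of the 10 and Ago3 the least in every group of Gata1s cells. In LUC the level was 30.7 ± 0.72 reads per kb of gene length and CPM-scaled (RPKM, on library totals; SD, n = 3) for Xpo5 and 23.3 ± 0.53 for Drosha. Tnrc6a (12.4 ± 0.28), Ago2 (12.1 ± 0.76), Ago1 (11.9 ± 0.16) and Dicer1 (11.6 ± 0.22) followed within about their spread of each other, then Dgcr8 (7.19 ± 0.30), Tnrc6b (4.41 ± 0.31), Tnrc6c (3.72 ± 0.16) and Ago3 (1.34 ± 0.25). In sh-ctrl, after 10 days of doxycycline, Drosha (17.6 ± 2.58) and Xpo5 (17.6 ± 3.34) could not be ordered, and Dicer1 (11.2 ± 2.96), Tnrc6a (8.10 ± 1.26), Ago1 (7.96 ± 1.13) and Ago2 (6.59 ± 1.03) came next with overlapping spreads.

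In WT cells the order differed at Drosha, which was at 11.3 ± 2.01 RPKM, level with Dicer1 (11.3 ± 2.26) and Ago1 (10.6 ± 1.71), while Xpo5 (32.1 ± 6.01) stood first and Ago2 (14.1 ± 4.22) had the next highest mean, within its spread of those 3. Ago4, the Argonaute not among the 10 genes, had 1 to 71 counts in each Gata1s library and 140 to 162 in each WT library. Its level was 1.22 ± 0.18 RPKM in WT, close to that of Ago3 (1.22 ± 0.32), and at most 0.18 RPKM as a group mean in the Gata1s cells. The tables were made separately, and genotype, doxycycline and second transgene change with them, so no test was made between WT and the other groups and these cannot be told apart.

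**Figure D1:**
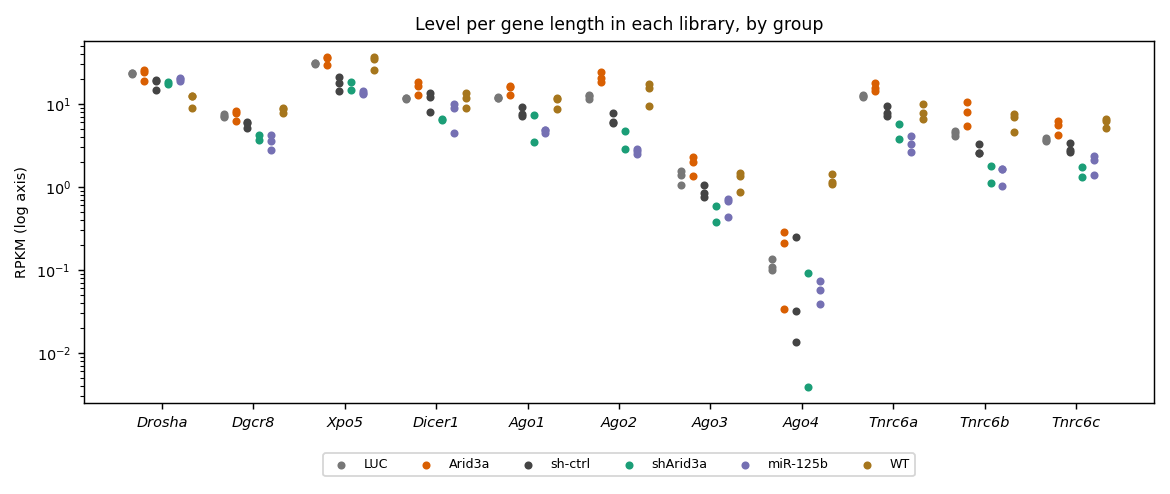
Level of the 10 genes and Ago4 in each of the 17 libraries (points), in RPKM on a log axis, coloured by group. Xpo5 and Drosha lie highest and Ago3 lowest of the 10 in the Gata1s cells, and Ago4 is near 1 RPKM in WT alone.

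With miR-125b, Ago2, the Tnrc6 scaffolds Tnrc6a and Tnrc6b, and Dgcr8 fell. These were the 4 of the 10 genes that passed the test against sh-ctrl. As sh-ctrl carries a hairpin, this test compares a microRNA with a hairpin and not with none. No group with 10 days of doxycycline lacked both. In the same fit 24.4% of the 14004 genes tested passed, with 1700 higher and 1714 lower, and the lower ones made up 12.2%. The median log2 difference was −0.46 over the 10 genes and −0.03 over all genes tested, and 9 of the 10 were below 0. In bulk libraries such as these, fewer cells of a type and less RNA per cell cannot be told apart.

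Ago2 (ENSMUSG00000036698, chr15:73095844-73184935, minus strand) showed the largest difference of the 10. Its level after TMM scaling (trimmed mean of M-values, edgeR's scaling between libraries) was 76.8, 78.0 and 93.8 CPM in sh-ctrl and 37.7, 39.4 and 38.6 CPM in miR-125b. Every miR-125b library was below every sh-ctrl library, and the miR-125b libraries lay close together. Ago2 fell by 1.10 on the log2 scale (SE 0.17, adjusted p = 0.00548, edgeR), 0.465 of the control level, and passed in each of 13 alternative fits (adjusted p up to 0.0269).

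Among the scaffolds that act downstream of Argonaute, Tnrc6a (ENSMUSG00000052707, chr7:123123885-123195296, plus strand) was at 91.7, 85.0 and 106 CPM in sh-ctrl and 37.7, 53.0 and 43.1 CPM in miR-125b. The groups were far apart, and Tnrc6a fell by 1.08 (SE 0.18, adjusted p = 0.00643, edgeR; up to 0.0309 over 13 alternatives, all passed). Tnrc6b (ENSMUSG00000047888, chr15:80711313-80941085, plus strand) was at 41.5, 41.8 and 49.5 CPM against 20.04, 28.8 and 29.7. The libraries again did not overlap, and Tnrc6b fell by 0.76 (SE 0.20, adjusted p = 0.025, edgeR). Without sh-ctrl replicate 3 its adjusted p was 0.0961 and without miR-125b replicate 1 it was 0.0665, so its call rests on those libraries. Tnrc6c, the third member of the family, had a log2 difference of −0.42 (SE 0.18, adjusted p = 0.115, edgeR) and no overlap between groups.

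The Argonautes besides Ago2 did not pass. Ago1 was at 58.2, 53.8 and 66.0 CPM in sh-ctrl and 40.7, 40.0 and 40.6 in miR-125b, all lower, with a log2 difference of −0.55 (SE 0.21, adjusted p = 0.0817, edgeR; 0.014 to 0.223 over the alternatives, 3 of 13 passed). Ago3 was at 11.8, 13.2 and 15.2 CPM against 8.0, 11.9 and 11.6, and the groups overlapped. Its log2 difference was −0.35 (SE 0.24, adjusted p = 0.299, edgeR).

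At the nuclear step the microprocessor partners differed in sign. Drosha (ENSMUSG00000022191, chr15:12824815-12935291, plus strand) was at 82.0, 105 and 101 CPM in sh-ctrl and 133, 123 and 115 CPM in miR-125b. All miR-125b libraries were above all controls, but the log2 difference of 0.37 (SE 0.13) missed the threshold (adjusted p = 0.0621, edgeR; 0.0441 with DESeq2, and 0.0441 to 0.359 over the 13 alternatives). Dgcr8 (ENSMUSG00000022718, chr16:18253948-18289246, minus strand) was at 34.9, 39.5 and 38.9 CPM against 22.8, 30.6 and 26.8, again with no overlap. Dgcr8 fell by 0.50 (SE 0.15, adjusted p = 0.0364, edgeR). The call for Dgcr8 was lost without sh-ctrl replicate 2 (adjusted p = 0.0751), sh-ctrl replicate 3 (0.111), miR-125b replicate 1 (0.104) or miR-125b replicate 3 (0.0889). Dgcr8 shares part of its span with 4 annotated genes, 1 of them on the other strand, and whether counting used strand is not given in the sources used here. The same limit holds for Ago2, which overlaps 1 annotated gene, Chrac1, on the other strand. Xpo5 overlaps 2, of which 1 is on the other strand. Drosha (1), Tnrc6a (1) and Tnrc6b (2) overlap annotated genes on their own strand, and Dicer1, Ago1, Ago3 and Tnrc6c overlap none.

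The export and dicing steps did not pass. Xpo5 was at 49.7, 72.6 and 57.6 CPM in sh-ctrl and 55.2, 52.9 and 50.2 in miR-125b, inside the range of its controls. Dicer1 (ENSMUSG00000041415, chr12:104687742-104751952, minus strand) was at 73.1, 112 and 118 CPM against 48.8, 97.4 and 90.0. In both groups the library numbered 1 was the lowest by far, and the groups overlapped. The log2 difference was −0.18 (SE 0.15, adjusted p = 0.394) for Xpo5 and −0.36 (SE 0.25, adjusted p = 0.317) for Dicer1 by edgeR.

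Over the 10 genes, 6 had every miR-125b library below every sh-ctrl library (Dgcr8, Ago1, Ago2, Tnrc6a, Tnrc6b and Tnrc6c), against 22.96% of all genes tested. Drosha had every library above, and the share of all genes with that pattern was not counted, so its separation cannot be set against a background. Leaving out libraries changed the totals: without sh-ctrl replicate 3, 734 genes (5.3% of those tested) passed in all and 2 of the 10, Ago2 and Tnrc6a. Without miR-125b replicate 1 the total was 1766 (12.7%), with the same 2 of the 10. It was 2032 (14.6%) without miR-125b replicate 3 and 2229 (16.0%) without miR-125b replicate 2.

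Markers of cell types and states differed as well between miR-125b and sh-ctrl. The summed level on library totals was 459 to 575 CPM against 680 to 721 for 5 hematopoietic markers (none at 0), 167 to 192 against 330 to 630 for 6 erythroid markers (Slc4a1 at 0 in both) and 97.3 to 121 against 144 to 158 for 6 endothelial and stromal markers (Cdh5, Col3a1 and Dcn at 0 in both), with no overlap. For 6 markers each it was 2541 to 3209 against 3028 to 4698 (megakaryocyte), 78.3 to 145 against 49.5 to 111 (myeloid) and 212 to 428 against 171 to 356 (mast cell and basophil), all overlapping. By edgeR, Mpo and Elane (2 of 5 myeloid markers tested), Mcpt8 and Prss34 (2 of 6 of mast cells and basophils), Gp1bb and Afp rose, and Hbb-bs, Itgb3 and Itga2b fell. In that fit, on the TMM scale, the 5 hematopoietic markers did not share a direction. There 2 were below 0 and 3 above, and none passed. The 6 proliferation markers summed to 1643 to 1882 against 1963 to 2326 CPM, but did not share a direction: Mki67 fell by 0.86 on the TMM scale (adjusted p = 0.00909, edgeR), Top2a was at −0.35, and the other 4 were above 0 without passing. The part of these markers and of the lower mitochondrial share in the result was not tested.

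**Figure D2:**
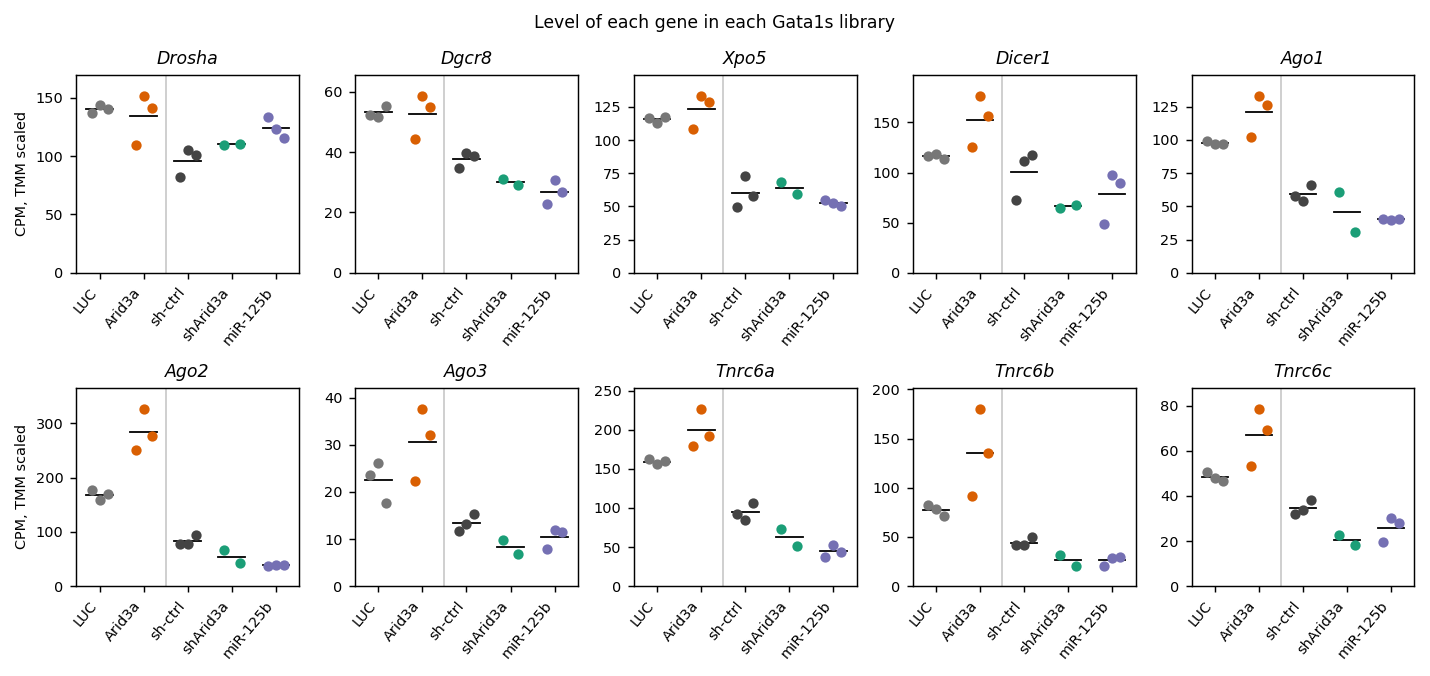
TMM-scaled level (CPM, linear axis from 0) of each gene in each library, with a bar at the group mean; the vertical line parts the 2 separately scaled tables. Ago2 and Tnrc6a lie lowest in miR-125b, and every miR-125b library of Drosha lies above its sh-ctrl libraries.

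Both sh-ctrl and shArid3a carry a hairpin, so their comparison is between hairpins and not between a hairpin and none. With shArid3a, none of the 10 passed the edgeR test, in a comparison where 12 of 14004 genes, or 0.0857%, passed in all. Of those 14004 genes, 3616 had an unadjusted p under 0.05. At that unadjusted level stood 5 of the 10. The median log2 difference over the 10 was −0.60, against −0.02 over all genes tested. The largest differences were those of Tnrc6c (−0.76, SE 0.21, adjusted p = 0.101), Tnrc6b (−0.75, SE 0.23, adjusted p = 0.109) and Ago3 (−0.70, SE 0.27, adjusted p = 0.154), all by edgeR. DESeq2, which passed 1600 genes (6.11% of those tested as lower), passed 4 of the 10 as lower, Ago2, Tnrc6a, Tnrc6b and Tnrc6c. The same 4 passed with edgeR and no filter on low counts. In that fit 1237 of 21696 genes, or 5.7%, passed in either direction, 727 of them as lower.

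The pair of shArid3a libraries differed between themselves in the silencing genes. Ago1 was at 60.9 CPM in replicate 1, inside the sh-ctrl range, and at 30.7 in replicate 3. Ago2 was at 66.0 and 42.9 CPM, Tnrc6a at 73.5 and 51.4 and Tnrc6b at 31.6 and 20.9, in each case both below the sh-ctrl libraries and replicate 3 the lower. Tnrc6c (22.5 and 18.4 CPM) and Ago3 (9.8 and 6.8) had the same order. Without shArid3a replicate 1 the median log2 difference over the 10 was −0.89 and without replicate 3 it was −0.34, each then resting on a lone library assumed to vary like the other groups.

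The log2 difference with shArid3a was −0.61 for Ago2 (SE 0.19, adjusted p = 0.11), −0.60 for Tnrc6a (SE 0.20, adjusted p = 0.121) and −0.37 for Ago1 (SE 0.24, adjusted p = 0.349), by edgeR. The processing genes were closer between the shArid3a libraries. Dicer1 was at 64.9 and 67.7 CPM, below all controls, with a log2 difference of −0.61 (SE 0.29, adjusted p = 0.21, edgeR). Dgcr8 was at 31.0 and 29.1 CPM, also below all controls, and Drosha at 110 and 111 CPM, above all controls. The log2 differences were −0.33 (SE 0.17) for Dgcr8, 0.20 (SE 0.14) for Drosha and 0.10 (SE 0.17) for Xpo5, whose groups overlapped. In all, 7 of the 10 had both libraries below every control, a pattern that 22.2% of all genes tested showed. On library totals, the summed hematopoietic markers were at 490 to 521 CPM in shArid3a and the endothelial and stromal ones at 126 to 131, below sh-ctrl in both cases. Also below were the stem and progenitor list (83.2 to 100.4 against 109 to 152) and the megakaryocyte list (2863 to 2935 against 3028 to 4698). The erythroid list was below too (309.5 to 319.4 against 329.6 to 629.5). The myeloid, mast cell and basophil, and proliferation lists overlapped. Of these markers, Cdh5, Col1a1, Col3a1, Dcn, Hlf, Mecom and Slc4a1 were at 0 in shArid3a. By edgeR on the TMM scale, 3 of 5 hematopoietic markers were below 0 and 2 above, and none passed. All 3 stem and progenitor markers tested were below 0. So were 4 of 6 megakaryocyte markers, with 2 above, and 4 of 5 erythroid ones, with 1 above. None of these passed either. Of the endothelial and stromal markers, Pecam1 (−0.04) and Kdr (−0.70) could be tested, and neither passed. The part of these markers was not tested.

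In the libraries labelled Arid3a, after 48 h, none of the 10 passed the edgeR test, in which 0.0% of 13495 genes passed (0 genes, with 2885 at an unadjusted p under 0.05 and a lowest adjusted p of 0.0675). Of the 10, 6 had an unadjusted p under 0.05. The median log2 difference was 0.36 over the 10 and 0.01 over all genes, and 6 of the 10 (Dicer1, Ago1, Ago2, Tnrc6a, Tnrc6b and Tnrc6c) had every library above every LUC library, against 12.95% of genes tested. Summed on library totals, the stem and progenitor markers did not overlap (5, 262 to 277 CPM against 166 to 194 in LUC, Mecom at 0 in LUC). Nor did the hematopoietic list (758 to 778 against 654 to 717) or the endothelial and stromal list (172 to 183 against 145 to 149). In that last list Cdh5, Col3a1 and Dcn were at 0 in both groups, and Pecam1 (0.24) and Kdr (0.65) could be tested. By edgeR all 3 stem and progenitor markers tested were above 0, as were 4 of 5 hematopoietic ones, with 1 below. None in these lists passed, and their part was not tested.

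Ago2 was at 178, 158 and 169 CPM in LUC and 251, 326 and 276 CPM in the libraries labelled Arid3a, well above the controls in each. Its log2 difference was 0.76 (SE 0.11, adjusted p = 0.0701, edgeR). Tnrc6b was at 82.6, 78.4 and 71.3 CPM against 92.1, 180 and 135, with a wide spread in the second group, and differed by 0.81 (SE 0.22, adjusted p = 0.108, edgeR). Tnrc6c differed by 0.47 (SE 0.14, adjusted p = 0.123), Ago3 by 0.45 (SE 0.22, adjusted p = 0.285), Dicer1 by 0.39 (SE 0.12, adjusted p = 0.135), Tnrc6a by 0.32 (SE 0.09, adjusted p = 0.121) and Ago1 by 0.31 (SE 0.10, adjusted p = 0.152). Xpo5 (0.10, SE 0.09), Dgcr8 (−0.01, SE 0.11) and Drosha (−0.06, SE 0.12) had overlapping groups.

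The calls in this comparison depended on 1 library, on the test and on the filter. Replicate 1 of the libraries labelled Arid3a was the lowest of its group for all 10 genes and replicate 2 the highest for all 10. Without replicate 1, 3198 genes passed and 8 of the 10 with them, all as higher (all but Drosha and Dgcr8), where 12.7% of genes tested passed as higher. Adjusted p-values were then 0.000521 for Ago2 and 0.000773 for Tnrc6b (edgeR; over the 12 alternatives 7.04e-08 to 0.375 and 0.000773 to 0.384). DESeq2 on all libraries passed 1359 genes, 5.59% of those tested as higher, and 5 of the 10, Ago2, Dicer1, Tnrc6a, Tnrc6b and Tnrc6c. With edgeR and no filter, 71 genes (0.321% of those tested) passed, Ago2 among them.

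**Figure D3:**
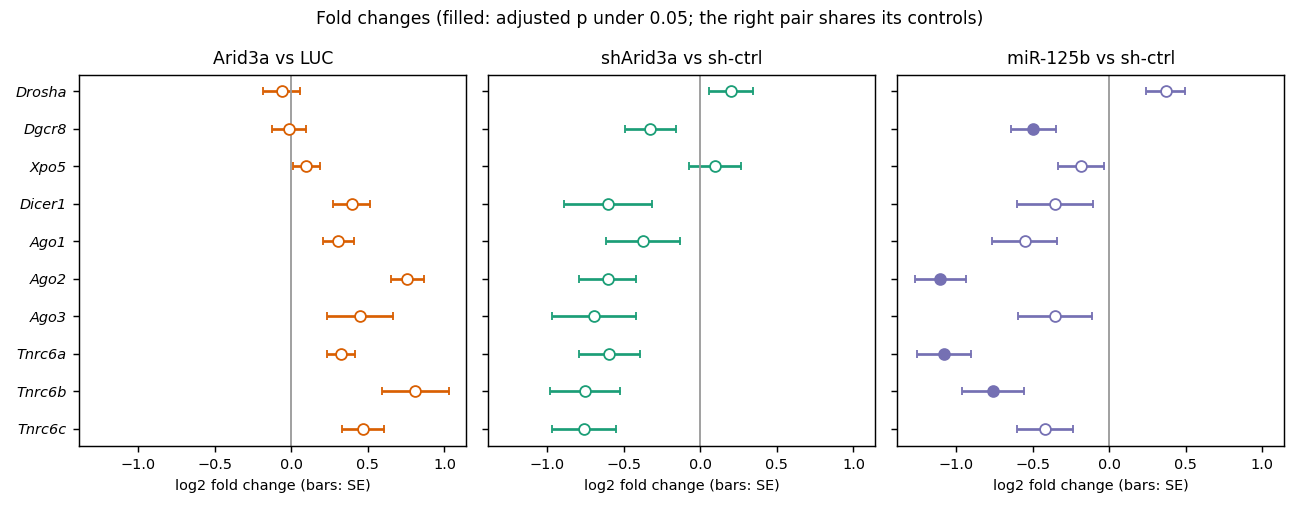
Log2 fold change (points) with its standard error (bars) for the 10 genes in 3 comparisons; filled points passed at an adjusted p under 0.05. The comparisons with shArid3a and miR-125b share the sh-ctrl libraries, and Drosha is the gene above 0 in both.

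The shArid3a and miR-125b comparisons share their controls, so their values are only set side by side. Ago2 was at −0.61 and −1.10 and Tnrc6a at −0.60 and −1.08, lower with miR-125b. Tnrc6b had −0.75 and −0.76. Tnrc6c (−0.76 and −0.42), Ago3 (−0.70 and −0.35) and Dicer1 (−0.61 and −0.36) had the lower value with shArid3a. A direct comparison of miR-125b with shArid3a, in which 189 genes or 1.35% passed, passed none of the 10 by edgeR or DESeq2. The nearest were Ago2 (−0.50, SE 0.18, adjusted p = 0.234, edgeR) and Tnrc6a (−0.49, SE 0.20, adjusted p = 0.284, edgeR), both with an unadjusted p under 0.05, and 2033 genes in all were at that level. A missed threshold does not show that the hairpin and the microRNA act alike on these genes.

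The balance within each family was taken inside each library, which frees it from scaling between libraries. Ago2 made up 45.8% to 48.6% of the Argonaute reads per kb in LUC and 53.2% to 56.3% in the libraries labelled Arid3a. In sh-ctrl its share was 40.9% to 43.4%, and in miR-125b 32.9% to 33.6%, the narrowest range of any group. Both pairs of groups were apart. The mean difference was 7.54 percentage points between the libraries labelled Arid3a and LUC and −9.25 points between miR-125b and sh-ctrl (exact permutation p = 0.1 each, two-sided, adjusted p = 0.171 over 24 tests, 0.1 being the smallest p that 3 against 3 libraries allow). In shArid3a the Ago2 share was 37.1% and 42.8%, on either side of the lowest control.

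The share of Ago1 was 58.7% ± 1.37 (SD, n = 3) in miR-125b against 51.3% ± 0.90 in sh-ctrl. It was 39.5% ± 1.42 in the libraries labelled Arid3a against 46.7% ± 0.93 in LUC. Ago1 and Ago2 make up most of the Argonaute reads per kb, so a lower share of one forces a higher share of the other. The Ago1 level itself had the same sign as Ago2, at −0.55 with miR-125b and 0.31 in the libraries labelled Arid3a. Ago3 made up 4.501% to 7.44% of the Argonaute reads per kb as a group mean. Within the Tnrc6 family, Tnrc6a was the larger part in every group of Gata1s cells, at 58.5% ± 1.37 in sh-ctrl, 61.2% ± 0.91 in shArid3a (n = 2) and 50.04% ± 3.05 in miR-125b. The miR-125b libraries lay below the rest of their table. In WT, Tnrc6a was at 39.5% ± 3.85 and Tnrc6b at 31.2% ± 3.18.

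Drosha per Dgcr8, the pair of the microprocessor, had a log2 ratio of 1.64 ± 0.09 in sh-ctrl, 2.17 ± 0.07 in shArid3a (n = 2) and 2.51 ± 0.29 in miR-125b, with no overlap among these 3 groups. It was 1.70 ± 0.06 in LUC and 1.64 ± 0.04 in the libraries labelled Arid3a, which overlapped, and 0.41 ± 0.16 in WT. The difference was 0.54 with shArid3a and 0.88 with miR-125b (exact permutation p = 0.1 each, two-sided, adjusted p = 0.171). Dicer1 per Drosha was −0.68 ± 0.20 in sh-ctrl, −1.47 ± 0.03 in shArid3a and −1.44 ± 0.64 in miR-125b, where the library numbered 1 stood at −2.18.

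**Figure D4:**
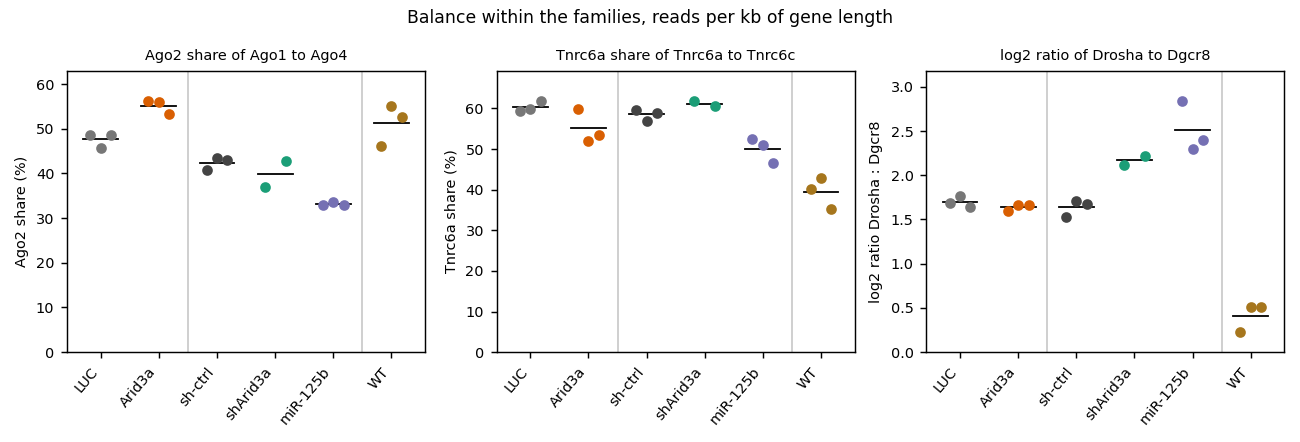
Share of Ago2 among the Argonautes and of Tnrc6a among the Tnrc6 genes (percent of reads per kb), and the log2 ratio of Drosha to Dgcr8, for each library with a bar at the group mean. Ago2 is at 32.9% to 33.6% in miR-125b, below the 40.9% to 43.4% of sh-ctrl.

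Most of these genes are long, and gene length went with the differences across the whole tables. By the gene lengths in the deposited tables, 9 of the 10 lie in the longest quartile of tested genes and Xpo5 in the third. In that longest quartile the median log2 difference over all genes was −0.33 with miR-125b, −0.31 with shArid3a and 0.18 in the libraries labelled Arid3a. In the shortest quartile it was 0.32, 0.29 and −0.15. With miR-125b, 25.0% of the longest genes passed as lower, against 12.2% of all. The medians over the 10 genes (−0.46, −0.60 and 0.36) have the signs of the longest quartile and lie further from 0, while Drosha (5934 bases) lies above 0 in both comparisons with sh-ctrl. The part of gene length in these results was not tested.

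Over all tested genes with a 3′ UTR, those with a seed match had a median log2 difference of −0.28 with miR-125b (0.02 for genes without a match), and 22.7% of them passed as lower against 11.8%. The median was −0.20 with shArid3a (0.01), 0.08 in the libraries labelled Arid3a (0.00) and −0.05 between miR-125b and shArid3a (0.01), where 1.66% passed as lower against 0.679%. Among the 10 genes, the log2 difference with miR-125b was −1.10 for Ago2, with 2 matches, −0.36 for Dicer1, with 1, and −1.08 for Tnrc6a, with none. The part of seed pairing in these differences was not tested.

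**Figure D5:**
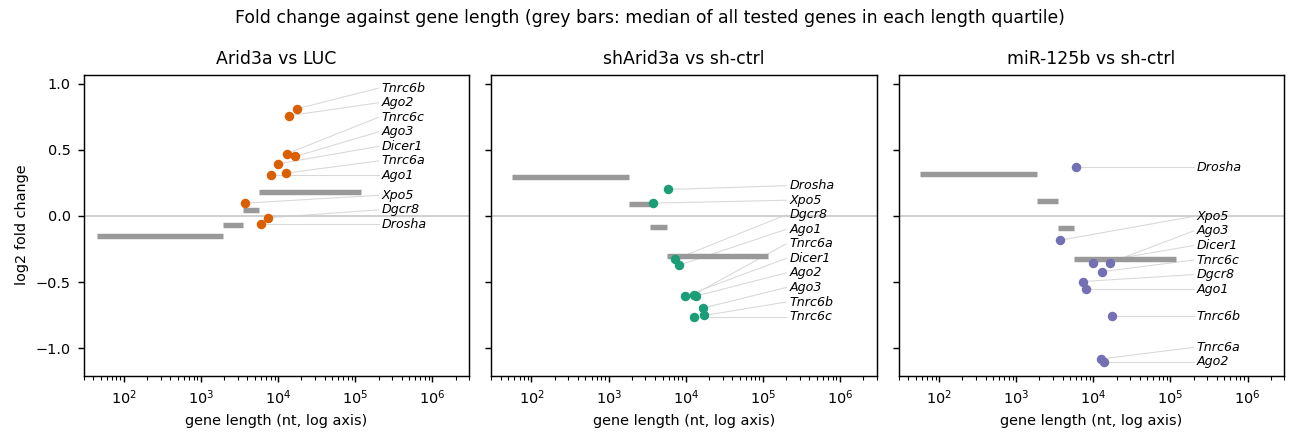
Log2 fold change of the 10 genes (points) against gene length (bases, log axis), with the median of all tested genes in each length quartile as a grey bar across its length range. The quartile medians run from 0.32 to −0.33 with miR-125b and in the opposite order, −0.15 to 0.18, in the libraries labelled Arid3a.

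Around the core machinery, 76 further genes in 5 lists were tested in the table with miR-125b, and 25 passed, 11 as higher and 14 as lower, where 12.1% of all genes tested passed as higher and 12.2% as lower. In the other comparisons with a control none passed by the edgeR test on all libraries with the filter. With shArid3a, DESeq2 passed 18 of 76 (7 higher, 11 lower) and edgeR with no filter 10 of 82 (1 higher, 9 lower). Of all genes tested, 11.4% and 5.7% passed in these fits. In the libraries labelled Arid3a, DESeq2 passed 10 of 77 (7 higher, 3 lower), where 10.1% of all genes tested passed. There edgeR without Arid3a replicate 1 passed 20 of 77 (17 higher, 3 lower), where 23.2% of all genes tested passed. Leaving out sh-ctrl replicate 3 left 12 of the 25, miR-125b replicate 1 left 15 and miR-125b replicate 3 left 16. Scaling to library totals turned the split to 7 higher and 24 lower.

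Among the microprocessor and nuclear cofactors, 3 of 12 rose and none fell with miR-125b, where 12.1% of all genes passed as higher, and the list median was 0.31 against −0.03 over all genes. Ncbp2, the small subunit of the nuclear cap-binding complex, was at 64.2 ± 7.79 CPM in sh-ctrl and 103 ± 7.41 in miR-125b (SD, n = 3), a log2 difference of 0.69 (SE 0.15, adjusted p = 0.0125, edgeR). Ran, the GTPase that Exportin-5 needs to hold its cargo, rose from 998 ± 154 to 1661 ± 248 CPM, by 0.73 (SE 0.18, adjusted p = 0.0197, edgeR). Erh, a small partner of the microprocessor, rose from 386 ± 42.3 to 642 ± 56.8 CPM, by 0.73 (SE 0.19, adjusted p = 0.0243, edgeR). None of the 3 passed without sh-ctrl replicate 3, and Erh missed in 5 of 13 alternatives.

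The partners of Dicer and Argonaute showed 7 of 19 higher and 2 lower (12.1% and 12.2% over all genes), with a median of 0.26. Tarbp2, which encodes the RNA-binding partner of Dicer known as TRBP, rose from 51.8 ± 4.0 to 94.4 ± 7.52 CPM, by 0.87 (SE 0.15, adjusted p = 0.00681, edgeR). Mov10, an RNA helicase that binds Argonaute, rose to 53.9 ± 1.92 CPM, by 0.84 (SE 0.15, adjusted p = 0.00701, edgeR). Fmr1, the fragile X RNA-binding protein, fell by 0.67 (SE 0.12, adjusted p = 0.0084, edgeR). The remaining 5 that rose, named after their values were seen, were the chaperones and co-chaperones Ptges3 (0.78), Fkbp4 (0.73), Hspa8 (0.71), Stip1 (0.48) and Dnaja2 (0.46). Such proteins help Argonaute take up a duplex and serve many other clients. The other gene that fell was Adar (−0.75), which edits double-stranded RNA.

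Of the deadenylation, decapping and decay effectors, which act on the target once Tnrc6 is bound, 7 of 29 fell and 1 rose (12.2% and 12.1% over all genes), with a median of −0.27. Pan2, the nuclease of the first deadenylase, fell from 40.3 ± 4.55 to 20.4 ± 3.96 CPM, by 0.98 (SE 0.17, adjusted p = 0.00726, edgeR). Cnot6, a nuclease of the CCR4-NOT deadenylase, fell by 0.72 (SE 0.12, adjusted p = 0.0067) and Btg1, which binds the same complex, by 0.82 (SE 0.14, adjusted p = 0.00671), by edgeR. The genes that remain, named after their values were seen, were Dcp1a, Cnot6l, Ddx6 and Pan3 as lower (−0.86 to −0.48) and Eif4e2, a cap-binding repressor, as higher (0.59).

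Of the genes for tailing, trimming and turnover of microRNAs, 4 of 13 fell and none rose (12.2% and 12.1% over all genes), with a median of −0.18. Lin28b, which blocks the maturation of let-7, fell from 34.2 ± 10.4 to 13.3 ± 3.34 CPM, by 1.37 (SE 0.25, adjusted p = 0.00858, edgeR). Tut7, a uridyl transferase of microRNA precursors, fell by 1.24 (SE 0.25, adjusted p = 0.0104), Tent4b, an adenylating enzyme, by 0.69 (SE 0.14, adjusted p = 0.0109), by edgeR, and Zswim8, of target-directed microRNA decay, was the remaining one (−0.77). Of the microRNA precursor and host genes, 10 of 12 were matched by name and 3 were abundant enough to be tested, and Mir17hg, host of the miR-17-92 cluster, fell from 31.2 ± 15.8 to 12.1 ± 1.48 CPM, by 1.36 (SE 0.31, adjusted p = 0.0155, edgeR). Tarbp2, Mov10, Fmr1, Pan2, Cnot6, Btg1, Lin28b, Tut7, Tent4b and Mir17hg passed in all 13 alternatives.

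Between miR-125b and shArid3a, 3 of the 76 passed by edgeR, where 189 genes or 1.35% of all tested passed. Smad5, a signal transducer reported to act with Drosha, was higher by 0.89 (SE 0.17, adjusted p = 0.0321) and Mov10 by 0.92 (SE 0.17, adjusted p = 0.03), while Lin28b was lower at −1.34 (SE 0.28, adjusted p = 0.0462). Of 12 alternatives, 5 kept the call for Smad5 and 6 each for Mov10 and Lin28b. With the replicate block Smad5 did not pass (log2 difference 0.86, adjusted p = 0.0554, edgeR; 4.45e-05 to 0.165 over its alternatives), while Mov10 and Lin28b did. The calls of Smad5 and Mov10 were lost without shArid3a replicate 1, shArid3a replicate 3, miR-125b replicate 2 or miR-125b replicate 3, and that of Lin28b without any of the 5 libraries.

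Across the 8 libraries of the table with the hairpins, each gene that fell with miR-125b had close companions among 8780 well-expressed genes, given as a description since all 8 libraries share the 3 groups. The log2 level of Ago2 ran most closely with Atxn1l (Pearson r = 0.992) and Hectd3 (0.990), and that of Tnrc6a with Zfyve27 (0.994) and Slk (0.993). Tnrc6b ran with Ice1 (0.995) and Elmsan1 (0.995), and Dgcr8 with Mbd4 (0.994) and Zfp397 (0.987).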

How the data were processed

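The authors deposited raw read counts per gene, as whole numbers, with the gene length in bases; no normalization is stated. The submitters' processing notes name fastp, HISAT2 2.0.5, featureCounts and mm10; the strand setting of the counting is not given in the sources used here. Tables were joined by Ensembl identifier (46880 genes in all 3). Counts were fitted per table with edgeR 4.0.16 in R 4.3.3 (TMM scaling, filterByExpr, quasi-likelihood test, 1 term per group), and a gene was called when its p-value, adjusted by Benjamini-Hochberg across every gene tested, was below 0.05. DESeq2 1.42.0, other filters and scalings, the replicate block and leaving out each library were alternatives. Scripts were tested on simulated data. Shares and ratios within a family were tested by exact permutation of libraries. Seed matches used the longest coding transcript of each gene in GENCODE M21.

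All 10 members were named, with Arid3a, Ago4 and up to 3 called genes of smallest adjusted p per list. The likeness rule took the 2 genes of average log2 CPM of at least 3 with the highest r. Members and lists were chosen with earlier results of these data known. As nothing says that libraries of a group came from separate cultures or animals, p-values measure only the spread between these libraries. Same-numbered libraries deviated together in the hairpin table (r of deviations from group means 0.15 to 0.43 in 7 pairs). Pairs with other numbers were at −0.43 to 0.36 (14 pairs), so the ranges overlap. The 2 shArid3a libraries deviate from their mean by equal and opposite amounts, so their values are not independent. The numbers may therefore pair the libraries, but these values do not show it. The main fit has no term for the number, and the replicate block, which has it, was an alternative. The shArid3a library numbered 2 was not analysed here.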

Additional observations from a re-analysis of the deposited data

How the results depend on the processing

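The direction and call of single genes were kept in 482 of 539 refits. For the libraries labelled Arid3a, genes called numbered 1359 with DESeq2, 71 with no filter and 0 to 3198 leaving out 1 library; of the 10 genes, 5, 1 and 0 to 8. For shArid3a they numbered 20 with library totals, 1600 with DESeq2, 1237 with no filter, 19 with at least 10 counts in every library, 0 without ribosomal RNA-like genes and 2 to 11 leaving out 1 library; of the 10 genes, DESeq2 and no filter each gave 4. For miR-125b, leaving out 1 library gave 734 to 2872 genes and 2 to 4 of the 10. Against shArid3a, miR-125b gave 737 with DESeq2, 715 with no filter and 12 to 329 leaving out 1 library. Library totals moved the median of all genes from −0.03 to −0.22 with miR-125b and from −0.02 to −0.22 with shArid3a, and the miR-125b split to 890 higher and 2452 lower; Ago1 then passed as lower too. Some small differences changed sign. With library totals, Dgcr8 was at 0.0244 in the libraries labelled Arid3a and Xpo5 at −0.0923 with shArid3a. Leaving out 1 library in the comparison with LUC, Dgcr8 ranged from −0.1005 to 0.1043, Drosha from −0.1628 to 0.0733 and Arid3a from −0.0188 to 0.2114. With shArid3a, Xpo5 ranged from −0.042 to 0.2371 and Ago1 from −0.9465 to 0.0434. Between miR-125b and shArid3a, Tnrc6b was at 0.0024 with DESeq2, 0.0003 with the 10-count filter and 0.0014 without ribosomal RNA-like genes, and leaving out 1 library Tnrc6b ranged from −0.2755 to 0.3241 and Ago1 from −0.5937 to 0.3955. Leaving out 1 library, the Ago2 share differed by −5.35 to 0.36 points (shArid3a against sh-ctrl) and −9.61 to −3.90 (miR-125b against shArid3a), the Ago1 share by 0.34 to 6.42 and 1.00 to 7.09, and the Tnrc6b share by −2.13 to −0.64 (shArid3a against sh-ctrl). The cause was not tested. With the replicate block, 0, 15, 3687 and 255 genes were called in the 4 comparisons, and 0, 0, 4 and 0 of the 10, so no call among the 10 changed, and 24 of the 25 and 2 of the 3 further pathway genes called in the comparisons with miR-125b kept their call. In the table of LUC and the libraries labelled Arid3a, same-numbered libraries correlated at 0.01 to 0.36 and share only a number. Ago4, at 1 to 71 counts in Gata1s libraries, is the gene whose depth limits a comparison.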
